A study of Mus musculus with 18 samples.

Results

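The 10 genes described here are transcriptional outputs of the ERK pathway: the ERK phosphatases *Dusp4*, *Dusp5* and *Dusp6*, the Sprouty genes *Spry1*, *Spry2* and *Spry4*, their relatives *Spred1* and *Spred2*, and the ETS factors *Etv4* and *Etv5*. They were chosen by symbol, with earlier results of these data known, so the share of them called does not test the set. All 10 were found among the 24333 gene symbols that the count tables of both lines share. RNA came from 168FARN and 67NR, non-metastatic mouse mammary tumour lines of BALB/c origin grown in serum-containing medium. Each line was studied as WT, as *Kmt2c* KO and as *Kmt2d* KO cells, with 3 replicates per group and 18 libraries in all. *Kmt2c* and *Kmt2d* encode histone methyltransferases that act at enhancers. KO cells were sorted pools, not single clones, which had received sgRNAs against exon 1 together with Cas9-GFP. The study reported reduced protein in KO cells by immunoblot. Its sequencing of the targeted sites found the lowest share of mutant reads in *Kmt2c* KO cells of 67NR, a pool that thus kept unedited reads. The WT columns of 168FARN are named as control sgRNA cells and those of 67NR as WT. The line therefore cannot be told apart from the table, the collection and the kind of control.

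ERK is the last kinase of the cascade that runs from growth factor receptors through RAS, RAF and MEK. Active ERK induces genes that restrain it: DUSP4 and DUSP5 dephosphorylate ERK in the nucleus and DUSP6 in the cytoplasm, whereas Sprouty and SPRED proteins act upstream at the level of receptors, RAS and RAF. *Etv4* and *Etv5* encode transcription factors of the PEA3 group of the ETS family and are themselves induced by FGF and ERK signalling. The mRNA of these genes is widely read as a gauge of ERK output, although each of them also has other inputs.

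The promoters of the 3 feedback genes with the clearest increase in KO cells of 67NR and of the gene that fell there are shown to set their regulatory sequence beside the values that follow. Each run holds the 250 bases before the RefSeq start site in GRCm38.p6, on the strand of the gene. *Dusp5* lies on the plus strand (chr19:53528895-53529144), as do *Dusp6* (chr10:99262981-99263230) and *Spry1* (chr3:37639697-37639946), and *Spry2* lies on the minus strand (chr14:105896820-105897069). Capitals mark CArG boxes, the motif bound by the serum response factor, which the ETS-related ternary complex factors join at ERK-responsive genes.
Dusp5: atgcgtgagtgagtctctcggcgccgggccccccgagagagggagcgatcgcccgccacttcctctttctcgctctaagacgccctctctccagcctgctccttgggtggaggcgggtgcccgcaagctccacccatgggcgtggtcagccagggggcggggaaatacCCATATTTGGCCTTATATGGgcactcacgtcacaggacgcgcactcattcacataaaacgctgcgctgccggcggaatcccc
Dusp6: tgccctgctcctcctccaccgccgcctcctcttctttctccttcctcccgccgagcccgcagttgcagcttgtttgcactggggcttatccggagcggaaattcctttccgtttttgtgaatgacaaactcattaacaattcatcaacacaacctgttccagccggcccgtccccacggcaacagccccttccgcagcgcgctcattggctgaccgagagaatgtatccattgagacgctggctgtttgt
Spry2: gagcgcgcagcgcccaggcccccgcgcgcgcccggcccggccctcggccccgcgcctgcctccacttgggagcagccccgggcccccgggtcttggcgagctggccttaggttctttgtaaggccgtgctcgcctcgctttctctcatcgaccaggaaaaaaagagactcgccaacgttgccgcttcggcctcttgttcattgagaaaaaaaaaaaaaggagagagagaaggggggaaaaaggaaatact
Spry1: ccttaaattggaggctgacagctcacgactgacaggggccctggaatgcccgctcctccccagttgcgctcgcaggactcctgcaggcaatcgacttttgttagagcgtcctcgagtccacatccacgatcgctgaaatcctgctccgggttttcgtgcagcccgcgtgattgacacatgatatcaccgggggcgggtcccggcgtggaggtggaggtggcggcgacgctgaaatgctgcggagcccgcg
Promoters of 7 of the 10 genes were examined, 8 in all, and none of *Dusp4*, *Spry4* or *Etv4*. Both strands were searched for an extended ETS site (CCGGAA), an AP-1 site (TGANTCA) and the CArG box, the last of which was added after the sequences had been seen. The shorter ETS core GGAA was not searched for. Only *Dusp5* held a match, a pair of adjoining CArG boxes whose first bases lay 82 and 72 bases before the start site. Of all 32851 promoters of that length, 12.0% held the extended ETS site, 6.75% the AP-1 site and 1.47% a CArG box. A match describes letters in this window and does not show binding.

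Counts on genes summed to 14330011 to 43276979 per library of 168FARN (median 31306232) and to 40815409 to 78955350 per library of 67NR (median 54433681). Levels are CPM, read counts relative to library size, scaled by TMM within each line. Replicates were collected a passage apart, so p-values measure the spread between collections of the same pools. Replicate 3 stood apart in both lines, and its libraries of different genotypes deviated together. Results are therefore also given with the replicate number as a block and without replicate 3 of every group. The mean level of *Kmt2c* mRNA was 88.1 CPM in WT and 77.8 CPM upon *Kmt2c* loss in 168FARN, and 58.4 and 90.3 CPM in 67NR. *Kmt2d* stood at 141 CPM in WT and 231 CPM upon *Kmt2d* loss in 168FARN and at 97.6 and 113 CPM in 67NR. These levels do not check the KO labels, because a frameshift in exon 1 can leave the transcript in place.

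Loss of either methyltransferase in 67NR was accompanied by higher *Dusp5*, *Dusp6*, *Spry2* and *Etv4* and by lower *Spry1*. In *Kmt2c* KO cells *Dusp5* rose 8.96-fold, *Spry2* 3.0-fold, *Dusp6* 2.87-fold and *Etv4* 2.63-fold, while *Spry1* fell to 0.107 of its WT level. In *Kmt2d* KO cells the same 4 genes rose 5.24-, 2.59-, 2.62- and 1.88-fold, and *Spry1* fell to 0.308 of WT. A gene was called when its log2 fold change exceeded 0.6 in size and its p from the quasi-likelihood test of edgeR, adjusted over all genes by Benjamini-Hochberg, was below 0.1. Thus 5 of the 10 genes were called in each KO, 4 higher and 1 lower. Among all 13621 genes tested, 35.4% were called in *Kmt2c* KO cells (17.9% higher and 17.5% lower) and 25.5% in *Kmt2d* KO cells (13.9% higher and 11.6% lower). Both KO comparisons share the WT libraries.

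Among the phosphatases, *Dusp6* had the smallest spread. It stood at 110, 117 and 108 CPM in replicates 1 to 3 of 67NR WT cells, at 313, 362 and 286 CPM upon *Kmt2c* loss and at 304, 279 and 294 CPM upon *Kmt2d* loss. All 6 KO libraries thus lay above all 3 WT libraries. The log2 fold change was 1.52 ± 0.14 (SE) in *Kmt2c* KO cells (adjusted p = 4.66e-05, edgeR) and 1.39 ± 0.14 in *Kmt2d* KO cells (adjusted p = 0.00014, edgeR).

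*Dusp5*, which encodes a phosphatase selective for ERK, changed most among the genes that rose. In 67NR WT cells it was low, at 4.21, 3.77 and 2.80 CPM. It reached 43.7, 34.6 and 18.5 CPM upon *Kmt2c* loss and 21.9, 22.4 and 12.3 CPM upon *Kmt2d* loss. Replicate 3 was the lowest in every group, but the KO and WT ranges did not overlap. The log2 fold changes were 3.16 ± 0.37 (SE, adjusted p = 0.000219, edgeR) and 2.39 ± 0.36 (adjusted p = 0.00161).

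*Dusp4* went the other way without passing the test. Its level was 91.1, 87.4 and 29.7 CPM in 67NR WT cells, 56.1, 49.5 and 18.7 CPM upon *Kmt2c* loss and 48.2, 48.8 and 15.5 CPM upon *Kmt2d* loss. Replicate 3 stood at 0.319 to 0.355 of the mean of the others in each group. The ranges of KO and WT overlapped, although every KO library lay below the WT library of its own number. The log2 fold changes were −0.74 ± 0.57 (SE, adjusted p = 0.358, edgeR) and −0.89 ± 0.57 (adjusted p = 0.314). Once the fit held the replicate number as a block, *Dusp4* was called lower in both KOs at −0.73 (adjusted p = 0.000344, edgeR) and −0.90 (adjusted p = 0.00013). The block raised the count to 6 of 10 in each KO, beside 41.3% and 32.7% of all genes. Without replicate 3 of every group, *Dusp4* was likewise called and the counts were 6 and 6, beside 44.2% and 35.9% of all genes.

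**Figure D1:**
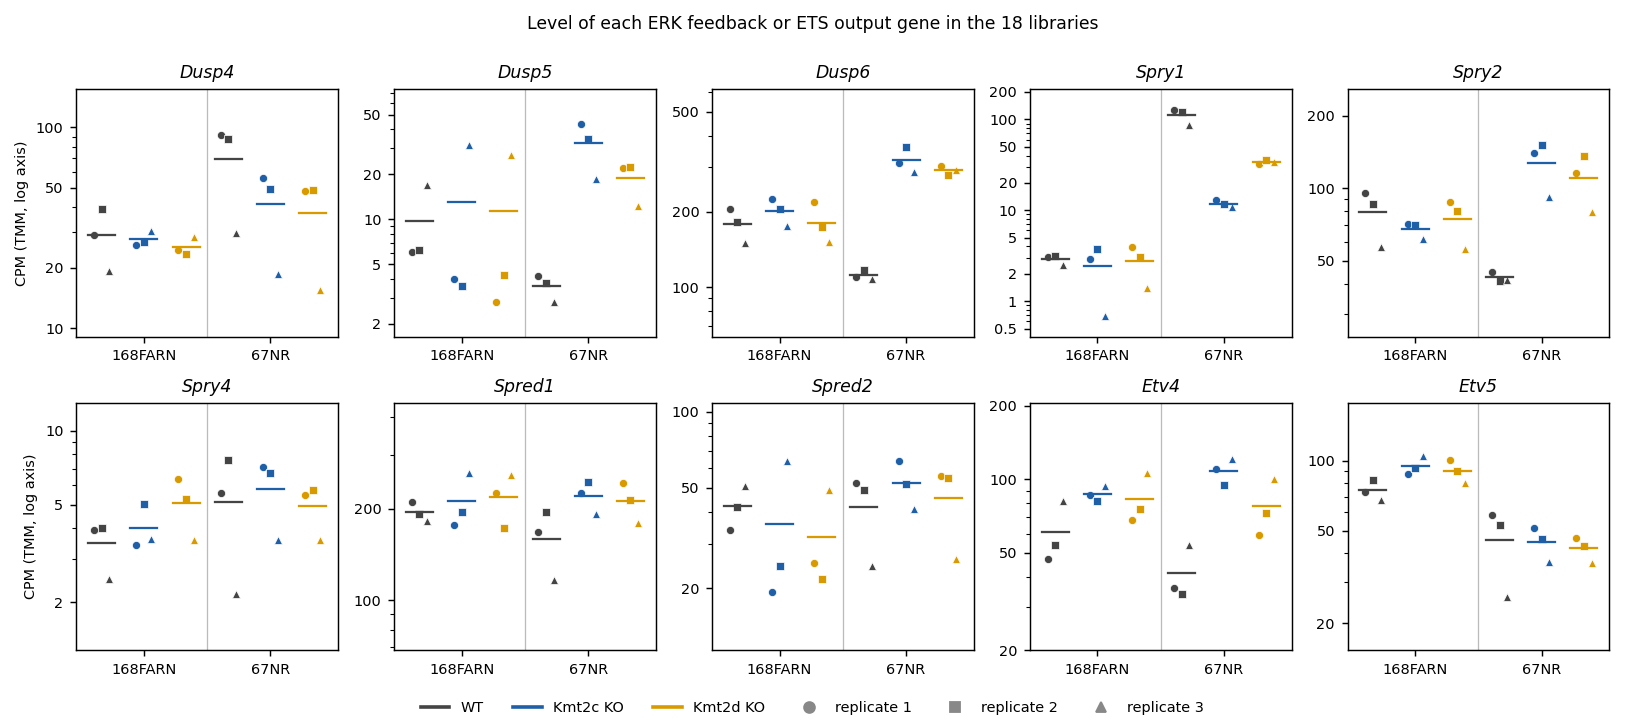
Level of the 10 genes in each of the 18 libraries, in CPM scaled by TMM within a line, on a log axis. Points are libraries, marked by replicate, and bars are group means (n = 3). *Dusp5*, *Dusp6*, *Spry2* and *Etv4* of 67NR lie higher in every KO library than in every WT library, *Spry1* of 67NR lies lower, and replicate 3 departs from the other replicates in several genes.

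The Sprouty genes split. *Spry2*, an inhibitor of receptor tyrosine kinase signalling, stood at 45.0, 41.1 and 41.5 CPM in 67NR WT cells, at 139, 152 and 91.5 CPM upon *Kmt2c* loss and at 115, 135 and 79.6 CPM upon *Kmt2d* loss. Even the lowest KO library was above every WT library, and the log2 fold changes were 1.58 ± 0.24 (SE, adjusted p = 0.00102, edgeR) and 1.37 ± 0.24 (adjusted p = 0.00356). *Spry1*, its close relative, went from 127, 120 and 85.7 CPM in WT to 13.1, 11.6 and 10.8 CPM upon *Kmt2c* loss and 32.6, 35.8 and 33.9 CPM upon *Kmt2d* loss. The log2 fold changes of *Spry1* were −3.22 ± 0.19 (SE, adjusted p = 4.84e-06, edgeR) and −1.70 ± 0.18 (adjusted p = 0.000179). *Spry4* stayed low throughout, at 2.17 to 7.62 CPM in the 9 libraries of 67NR, with log2 fold changes of 0.18 (95% interval −0.83 to 1.19) and −0.06 (−1.07 to 0.96).

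*Spred1* and *Spred2*, whose products bind neurofibromin and RAS regulators at the membrane, were not called. *Spred1* lay at 116 to 195 CPM in 67NR WT cells and at 180 to 245 CPM in KO cells. Its log2 fold changes were 0.47 (95% interval −0.01 to 0.94, adjusted p = 0.119, edgeR) and 0.41 (−0.07 to 0.88, adjusted p = 0.204). With the block they were 0.49 (adjusted p = 0.00751, edgeR) and 0.43 (adjusted p = 0.0194), which passed the threshold on p but not that on fold, and each KO library lay above the WT library of its own number. Without replicate 2 of 67NR WT cells *Spred1* was called higher in *Kmt2c* KO cells at 0.62. *Spred2* ranged from 24.6 to 52.4 CPM in WT and from 26.2 to 63.7 CPM in KO cells, with overlapping groups.

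The ETS factors also split. *Etv4* stood at 35.9, 33.9 and 54.0 CPM in 67NR WT cells, at 110, 94.6 and 121 CPM upon *Kmt2c* loss and at 59.0, 73.0 and 101 CPM upon *Kmt2d* loss. Replicate 3 was highest in each group, and the lowest *Kmt2d* KO library was only just above the highest WT library. The log2 fold change was 1.39 ± 0.25 (SE, adjusted p = 0.0024, edgeR) in *Kmt2c* KO cells and 0.91 ± 0.25 (adjusted p = 0.0272) in *Kmt2d* KO cells. *Etv5* did not move with it: WT libraries lay at 58.6, 52.8 and 26.0 CPM, *Kmt2c* KO libraries at 51.5, 45.9 and 36.7 CPM and *Kmt2d* KO libraries at 46.3, 43.2 and 36.4 CPM. The groups overlapped, and the log2 fold changes of *Etv5* were −0.04 (95% interval −0.67 to 0.60) and −0.13 (−0.76 to 0.51).

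The calls of *Dusp5*, *Dusp6*, *Spry1*, *Spry2* and *Etv4* in both KOs of 67NR held under all 16 other settings, which included leaving out each library of the 2 groups compared, DESeq2 and the replicate block. Over these settings the log2 fold change of *Dusp6* lay between 1.41 and 1.60 upon *Kmt2c* loss and between 1.20 and 1.43 upon *Kmt2d* loss. The largest adjusted p of these calls over the settings was 0.0972 (edgeR), for *Etv4* in *Kmt2d* KO cells, with an adjusted p of 0.0272 over all libraries and log2 fold changes from 0.69 to 1.15.

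The cells of 67NR also differed in lineage markers. The summed level of 5 epithelial markers was 2350 to 3712 CPM in WT libraries, 512 to 793 CPM upon *Kmt2c* loss and 911 to 1570 CPM upon *Kmt2d* loss, without overlap. In bulk RNA, fewer cells of a type and less RNA per cell cannot be told apart. The 5 mesenchymal markers went different ways, so that their sum, 3134 to 5975 CPM in WT and 3890 to 5506 CPM in KO libraries, hides their changes. The mean of *Vim* was 604 CPM in WT, 3268 CPM upon *Kmt2c* loss and 2752 CPM upon *Kmt2d* loss, that of *Cdh2* was 10.9, 202 and 155 CPM, and that of *Zeb1* was 5.07, 73.8 and 52.9 CPM. In contrast *Fn1* stood at 4361, 1113 and 1480 CPM, and *Col1a1* was low at 2.31, 1.39 and 2.17 CPM. Summed leucocyte and endothelial markers did not exceed 5.20 and 5.22 CPM in any library of either line. In 168FARN, *Epcam* and *Cldn4* were at 0 in every library although the line is of mammary tumour origin, and the epithelial sum was 97.9 to 391 CPM. Nearly all of that sum was *Krt8*, at means of 213 CPM in WT, 163 CPM upon *Kmt2c* loss and 197 CPM upon *Kmt2d* loss. *Krt18* and *Cdh1* had group means of at most 0.105 CPM there. Whether the shifts in epithelial and mesenchymal markers had a part in the changes of the ERK output genes was not tested.

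In 168FARN, none of the 10 genes was called in either KO. By edgeR, 0 of 10 were called after loss of *Kmt2c* and 0 of 10 after loss of *Kmt2d*, 0 had an unadjusted p under 0.05, and DESeq2 also called 0. Across all 12228 genes tested, edgeR called 0.360% and 0.286%, and DESeq2 called 278 and 230 of 16929. Genes with an unadjusted p under 0.05 were not counted over all genes. The block raised the edgeR shares to 7.25% and 5.93% and called 0 of the 10. At shares this low, 0 of 10 does not set these genes apart. Dispersion was larger in this line, and the SE of the log2 fold change ran from 0.16 for *Etv5* to 1.09 for *Dusp5*.

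**Figure D2:**
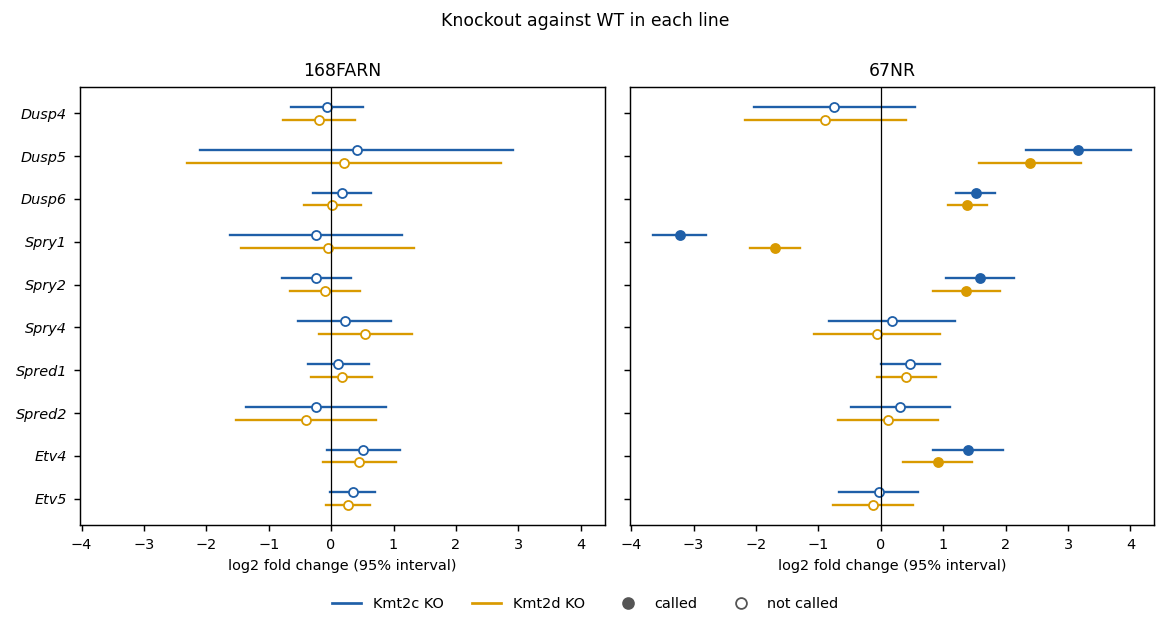
Log2 fold change of each gene in *Kmt2c* KO and *Kmt2d* KO cells against WT of the same line, with 95% intervals from edgeR (n = 3 per group). Filled points passed both thresholds. In 168FARN no point is filled and all intervals include 0, whereas in 67NR *Dusp5*, *Dusp6*, *Spry2* and *Etv4* are filled to the right of 0 and *Spry1* to the left for both KOs.

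*Dusp6* in 168FARN stood at 205, 181 and 149 CPM in the WT libraries, 225, 204 and 176 CPM upon *Kmt2c* loss and 218, 173 and 151 CPM upon *Kmt2d* loss. The groups overlapped, and replicate 3 was the lowest in each. The log2 fold changes were 0.18 (95% interval −0.28 to 0.64) and 0.02 (−0.44 to 0.48), intervals that end below the increases measured in 67NR. *Spry2* lay at 95.7, 86.2 and 56.7 CPM in the WT libraries, 71.2, 70.4 and 61.2 CPM upon *Kmt2c* loss and 87.4, 80.5 and 55.7 CPM upon *Kmt2d* loss. Its log2 fold changes of −0.23 (−0.79 to 0.32) and −0.09 (−0.65 to 0.46) likewise left out rises of the size seen in 67NR.

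*Dusp5* in 168FARN varied with the collection. It stood at 6.02, 6.27 and 17.1 CPM in the WT libraries, at 3.98, 3.56 and 31.5 CPM upon *Kmt2c* loss and at 2.82, 4.25 and 26.8 CPM upon *Kmt2d* loss. Replicate 3 was the highest of each group by a wide margin. The fit over all libraries gave log2 fold changes of 0.41 (95% interval −2.10 to 2.92) and 0.21 (−2.30 to 2.72). Without replicate 3 of every group the sign turned, and *Dusp5* was called lower at −0.70 (adjusted p = 0.0275, edgeR) and −0.82 (adjusted p = 0.025).

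Leaving out replicate 3 also changed other genes of 168FARN. *Spred2* stood at 34.0, 42.1 and 51.0 CPM in the WT libraries, 19.3, 24.5 and 63.6 CPM upon *Kmt2c* loss and 25.3, 21.7 and 48.9 CPM upon *Kmt2d* loss. It was called lower without replicate 3 in both KOs, at −0.78 (adjusted p = 0.00128, edgeR) and −0.68 (adjusted p = 0.00558). *Etv4* stood at 47.2, 53.7 and 81.8 CPM in the WT libraries, 86.5, 81.3 and 93.7 CPM upon *Kmt2c* loss and 68.0, 75.7 and 107 CPM upon *Kmt2d* loss. Every KO library of *Etv4* was above the WT library of its own number. *Etv4* was called higher in *Kmt2c* KO cells without replicate 3 at 0.74 (adjusted p = 0.000306, edgeR). With the block, *Etv4* had log2 fold changes of 0.56 (adjusted p = 0.0156, edgeR) and 0.46 (adjusted p = 0.0481), which passed the threshold on p but not that on fold. The counts without replicate 3 were thus 3 of 10 and 2 of 10, beside 14.4% and 11.0% of all genes.

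The remaining genes of 168FARN had small or uncertain differences. *Etv5* was at 68.0 to 83.0 CPM in WT and 87.9 to 104 CPM upon *Kmt2c* loss without overlap, with a log2 fold change of 0.35 ± 0.16 (SE) that did not pass (adjusted p = 0.87, edgeR). *Spry1* was low, at 3.06, 3.16 and 2.49 CPM in the WT libraries, 2.94, 3.74 and 0.696 CPM upon *Kmt2c* loss and 3.95, 3.05 and 1.41 CPM upon *Kmt2d* loss. Its 95% intervals, −1.62 to 1.14 and −1.44 to 1.33, were wide. *Dusp4*, *Spry4* and *Spred1* had log2 fold changes between −0.19 and 0.55 over both KOs. For *Dusp4* the KO libraries of replicates 1 and 2 lay below the WT library of their number, and those of replicate 3 above it. Without replicate 3 of every group *Dusp4* stood at −0.36 (adjusted p = 0.0561, edgeR) and −0.49 (adjusted p = 0.0228), which passed the threshold on p but not that on fold.

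Whether a KO acted differently on these genes in the 2 lines was tested as an interaction in a fit of all 18 libraries. For *Kmt2c* KO, 3 of 10 genes were called, beside 16.0% of 13882 genes tested. The log2 fold change of *Dusp6* was 1.26 higher in 67NR than in 168FARN (95% interval 0.74 to 1.79, adjusted p = 0.00281, edgeR), that of *Spry2* was 1.74 higher (0.99 to 2.49, adjusted p = 0.0037), and that of *Spry1* differed by −3.07 (−4.37 to −1.76, adjusted p = 0.0033). *Spry1* averaged only 2.91 CPM in 168FARN WT cells, so a fall was harder to measure in that line. For *Kmt2d* KO, 2 of 10 were called, beside 10.6% of all genes: *Dusp6* at 1.31 (0.78 to 1.83, adjusted p = 0.00319, edgeR) and *Spry2* at 1.40 (0.66 to 2.15, adjusted p = 0.0223). The differences of *Dusp5* were larger, 2.67 and 2.11, but their SEs were 1.20 and 1.20 and neither passed (adjusted p = 0.186 and 0.384, edgeR).

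With the replicate number within each line as a block, the interaction called 7 of 10 genes for *Kmt2c* KO, beside 34.6% of all genes, and 5 of 10 for *Kmt2d* KO, beside 28.4%. The block added *Dusp4*, *Dusp5*, *Etv4* and *Spred2* in the former, of which *Dusp5* differed by 3.19 (adjusted p = 5.54e-06, edgeR). In *Kmt2d* KO cells it added *Dusp4*, *Dusp5* and *Spry1*, with *Spry1* at −1.59 (adjusted p = 0.00333, edgeR). Without replicate 3 of every group the counts were 6 and 7, beside 38.0% and 32.5% of all genes. *Dusp4* was then not called for either KO, at −0.47 (adjusted p = 0.0398, edgeR) and −0.42 (adjusted p = 0.0765), which missed the threshold on fold. *Etv5* differed by −0.46 for both KOs and was called under neither the test without a block nor that with it. When 1 library was left out, its difference ran from −0.75 to −0.23 for *Kmt2c* KO and from −0.74 to −0.26 for *Kmt2d* KO. It was called without replicate 3 of 67NR WT cells for both KOs, and for *Kmt2d* KO also without replicate 3 of every group, at −0.65 (adjusted p = 0.00333, edgeR).

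**Figure D3:**
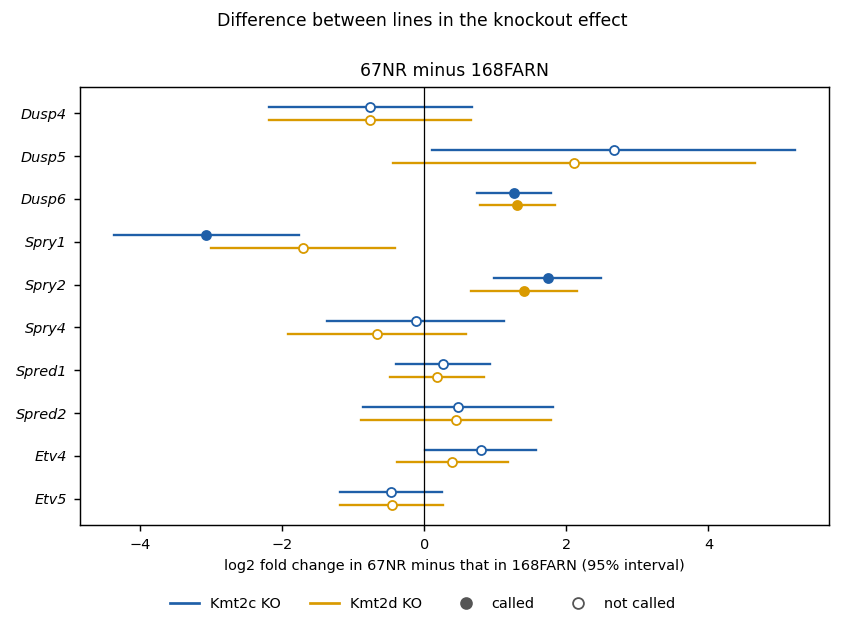
Difference between 67NR and 168FARN in the log2 fold change of each KO against its WT, with 95% intervals from the edgeR fit of 18 libraries. Filled points passed both thresholds. *Dusp6* and *Spry2* lie to the right of 0 for both KOs, *Spry1* is filled for *Kmt2c* KO only, and the intervals of *Dusp5* are the widest.

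*Kmt2c* KO and *Kmt2d* KO cells of 67NR were also compared with each other. Of the 10 genes, *Spry1* alone was called, at a log2 fold change of −1.52 ± 0.18 (SE, adjusted p = 0.0104, edgeR), beside 1.41% of all genes. With library totals in place of TMM it missed the threshold, at −1.34 (adjusted p = 0.105, edgeR). Each *Kmt2c* KO library had less *Spry1* than each *Kmt2d* KO library. *Dusp5* was 0.77 higher in *Kmt2c* KO cells on the log2 scale without passing (95% interval 0.00 to 1.55, adjusted p = 0.457, edgeR) and passed with the block (0.74, adjusted p = 0.0182), when 2 of 10 and 7.30% of all genes were called. Without replicate 3 of every group, *Dusp5*, *Etv4* and *Spry1* were called, beside 12.6% of all genes. *Dusp6* differed by 0.13 (95% interval −0.17 to 0.44) and *Spry2* by 0.21 (−0.32 to 0.75). In 168FARN the same comparison called 0 of 10 by edgeR and by DESeq2, and 0 had an unadjusted p under 0.05. Of all genes, edgeR called 0.254% and DESeq2 called 218 of 16929.

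WT cells of the lines started from different levels. In the fit of all libraries 5 of 10 genes were called between WT 67NR and WT 168FARN, beside 39.2% of all genes. *Spry1* was 37.9-fold higher in 67NR (log2 fold change 5.25 ± 0.50 SE, adjusted p = 7.39e-07, edgeR), and *Dusp4* was 2.37-fold higher (adjusted p = 0.0534). *Dusp6*, *Spry2* and *Etv5* were lower in 67NR, with log2 fold changes of −0.68 (adjusted p = 0.006, edgeR), −0.91 (adjusted p = 0.0092) and −0.71 (adjusted p = 0.0294). The call of *Dusp4* was lost in 4 of the 6 fits that left out 1 library, at adjusted p up to 0.184 (edgeR). That of *Etv5* was lost without replicate 3 of 67NR WT cells, at −0.43, without replicate 3 of every group, at −0.53, and when only the WT libraries were fitted (adjusted p = 0.112, edgeR). With CPM scaled over all 18 libraries, the mean of *Dusp6* in 67NR went from 114 to 308 and 282 CPM after KO, above the 183 CPM of 168FARN WT cells. *Spry2* went likewise from 43.3 to 123 and 106 CPM on this scale, beside 81.4 CPM in 168FARN WT cells. *Spry1* went from 113 to 11.4 and 32.9 CPM and stayed above the 2.97 CPM of 168FARN WT cells.

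Levels of different genes were compared as CPM per kb of exon, with CPM scaled over all 18 libraries. *Dusp6* led in all 6 groups, at 40.7 ± 1.95 (SD, n = 3) CPM per kb in 67NR WT cells and 110 ± 13.0 in *Kmt2c* KO cells. In 67NR WT cells *Spry1* came next at 38.8 ± 7.72 CPM per kb, within its spread of *Dusp6*, followed by *Dusp4*, *Spred1* and *Spry2* at 25.8, 24.0 and 20.8. In *Kmt2c* KO cells of 67NR *Spry2* stood at 58.8 ± 14.5 CPM per kb and *Spry1* at 3.92 ± 0.36, ahead of *Spry4* only. In 168FARN WT cells the order was *Dusp6*, *Spry2*, *Spred1*, *Etv4* and *Etv5*, with *Etv4* and *Etv5* at 20.0 ± 5.92 and 18.6 ± 1.94 CPM per kb, which did not differ beyond their spread, and *Spry1* and *Spry4* came last.

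The rest of the pathway was described with 4 lists of other genes, from which the genes named for 67NR had adjusted p-values of at most 0.0117 (edgeR). These lists were also chosen with earlier results of these data known, so the shares called describe them and do not test them. Of 23 genes of the cascade from receptors to ERK, 4 were called higher and 1 lower upon *Kmt2c* loss in 67NR, and 2 higher and 0 lower upon *Kmt2d* loss. These 21.7% and 8.70% of the list lay below the 35.4% and 25.5% of all genes called. The median log2 fold changes of this list, 0.05 and 0.03, were close to the −0.02 and −0.02 of all tested genes. Among its genes the receptor gene *Fgfr1* rose from 11.9 to 146 CPM upon *Kmt2c* loss (log2 fold change 3.62 ± 0.21 SE) and to 106 CPM upon *Kmt2d* loss (3.16 ± 0.21). *Araf*, which encodes a RAF kinase, rose by 0.97 and 0.84 on the log2 scale. *Egfr*, low at 2.67 CPM in the WT libraries, fell to 0.234 CPM upon *Kmt2c* loss.

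Of 25 genes listed as other negative regulators of RAS and ERK, 9 rose and 4 fell upon *Kmt2c* loss in 67NR, and 8 and 4 upon *Kmt2d* loss, with medians of 0.51 and 0.37. The list was broad and also held *Peak1* and *Dusp10*, which are not specific restraints of ERK. With the replicate block *Peak1* was called higher at 1.48 and 1.05, and *Dusp10* at 1.02 and 0.84. The counts and medians are therefore not those of ERK restraints alone. The list had 52.0% and 48.0% of its genes called, beside 35.4% and 25.5% of all genes. The phosphatase gene *Dusp1* rose by 2.45 and 2.32 on the log2 scale, and *Spred3*, a further SPRED gene, rose by 1.88 and 1.58. *Il17rd*, which encodes the FGF receptor antagonist SEF, had a log2 fold change of −4.56 and −2.99 in these comparisons from a WT level of 1.66 CPM. *Nf2*, the gene of the tumour suppressor merlin, fell from 242 to 102 and 97.5 CPM.

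Of 28 other ERK output genes, 15 rose and 3 fell upon *Kmt2c* loss in 67NR, and 9 and 2 upon *Kmt2d* loss, with medians of 0.65 and 0.36. That is 64.3% and 39.3% called, beside the same 35.4% and 25.5%, in a list chosen with earlier results known. The EGFR ligand gene *Ereg* rose from 6.08 to 205 and 148 CPM, and the immediate early gene *Egr1* rose from 42.8 to 158 and 154 CPM. In contrast *Tgfa*, another EGFR ligand gene, fell from 67.8 to 20.3 and 33.7 CPM. *Fos* fell by 1.75 on the log2 scale in *Kmt2c* KO cells, and *Gprc5a* fell by 0.75 in *Kmt2d* KO cells.

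Of 14 other ETS factors tested, 2 rose and 3 fell upon *Kmt2c* loss in 67NR, and 0 and 3 upon *Kmt2d* loss. The shares called, 35.7% and 21.4%, were near the 35.4% and 25.5% of all genes. The epithelial ETS factors *Ehf* and *Elf3* fell: *Ehf* went from 68.1 to 7.39 and 6.22 CPM and *Elf3* from 48.9 to 9.06 and 17.4 CPM. *Erf*, an ETS repressor that ERK inactivates, rose by 0.87 and *Elk3*, a ternary complex factor, by 0.75 on the log2 scale in *Kmt2c* KO cells. *Etv4* thus differed in direction from *Ehf* and *Elf3*, and the epithelial markers that fell in the same libraries are given above.

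In 168FARN none of the genes of the 4 lists was called in either KO by edgeR, and DESeq2 called 0 and 1. Of the 84 list genes tested, 8 and 6 had an unadjusted p under 0.05 (edgeR) in *Kmt2c* KO and *Kmt2d* KO cells. The share of all genes under that p was not counted, so these 2 counts cannot be read as a result about the lists. With the replicate block 5 of the 84 list genes tested were called in each KO, a share near the 7.25% and 5.93% of all genes called with the block. *Fgfr1* was among them in both, at 0.61 (adjusted p = 0.0156, edgeR) and 1.31 (adjusted p = 0.000142), as was the ERK phosphatase gene *Dusp2*, at 1.01 (adjusted p = 0.00466) and 0.72 (adjusted p = 0.0393).

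**Figure D4:**
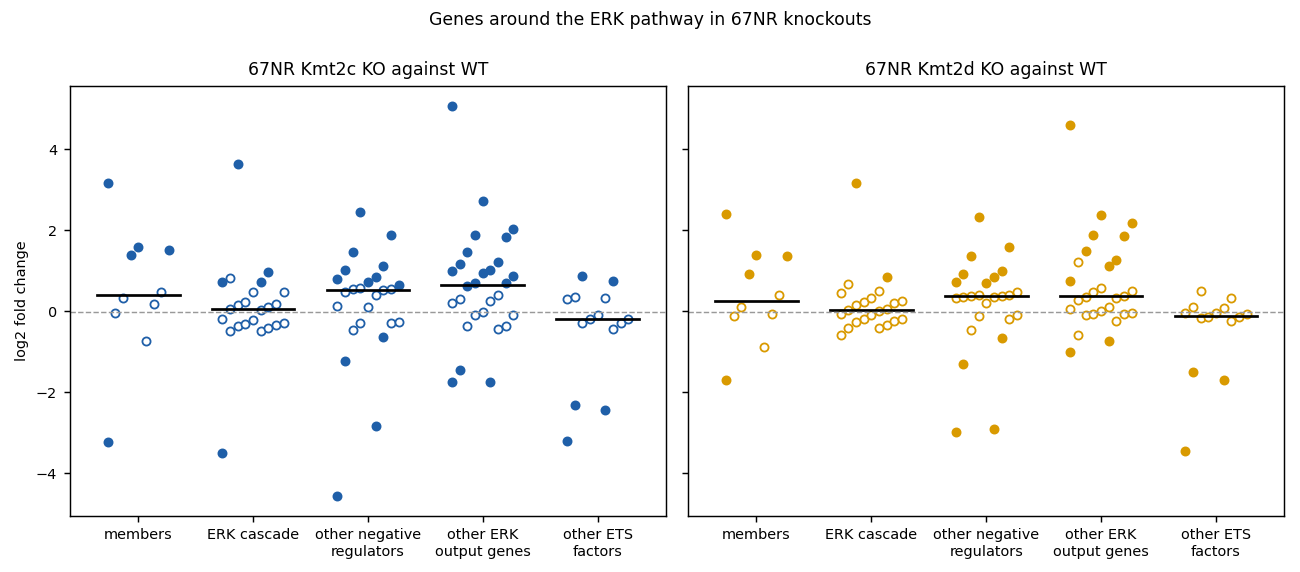
Log2 fold change in KO cells of 67NR of the 10 genes (members) and of the genes of the 4 lists. Filled points passed both thresholds, black bars are list medians and the dashed line is the median of all tested genes. The 10 genes and the lists were chosen with earlier results of these data known. The medians of the genes listed as other negative regulators (0.51 and 0.37) and of the other ERK output genes (0.65 and 0.36) lie above those of the cascade (0.05 and 0.03).

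Across the 18 libraries, after centring log2(CPM + 1) within each line, the genes most like *Dusp6* were *Irx5*, *Hmgcll1* and *Sgip1* (each r = 0.98). The genes most like *Spry2* were *Zfp36l1* (r = 0.97), *Nr1d1* and *Hectd2* (each r = 0.96). Those most like *Etv5* were *Cbfa2t2* (r = 0.89), *Zfp263* (r = 0.87) and *Trappc9* (r = 0.86). None of the 10 genes was among them. Between pairs of the 10 genes r ran from −0.85, for *Spry1* with *Etv4*, to 0.91, for *Dusp6* with *Spry2*, with a median of 0.21. Within 1 line r could differ from these pooled values. *Dusp5* with *Dusp6* had r = −0.76 in 168FARN and 0.94 in 67NR, whereas *Dusp6* with *Spry2* had 0.67 and 0.94. The points share libraries, KO state and collection, so these values only describe the pattern.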

How the data were processed

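RNA-seq libraries of 168FARN and 67NR cells were strand-specific and read as pairs. Per the labels and the study's methods, the authors aligned reads to mm9 with STAR and deposited raw read counts per gene symbol, without normalization, in 1 table per line; the counter's strand setting and the annotation are not given in the sources used here. The 27 rows per table whose symbols had become dates, or are their counterparts, were left out (0.276% and 0.339% of counts). Groups came from sample titles.

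The 10 genes, the 4 lists, the markers and the thresholds were chosen with earlier results of these data known. Genes were kept by filterByExpr (minimum count 10) and tested with edgeR 4.0.16 (TMM, robust glmQLFit, glmQLFTest; R 4.3.3) in fits of 9 libraries per line, or of 18 for differences between lines, with Benjamini-Hochberg adjustment over all genes. The test was checked on simulated counts that held no deviations shared between libraries of the same replicate number. The check thus does not cover that feature of the data. DESeq2 1.42.0 was an alternative, and with the others in the closing section it included leaving out each library of the groups compared; the fits without replicate 3 of every group and DESeq2 with the block were added after the data had been seen. From each list and KO comparison the text names up to 2 called genes per direction with the smallest p, plus the genes that only the block called in both KOs of 168FARN, and the 3 genes with the highest Pearson correlation to *Dusp6*, *Spry2* and *Etv5*.

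Replicates were collected at successive passages. Deviations from group means of libraries with the same number had correlations of 0.62 to 0.88 (168FARN) and of 0.32 to 0.69 (67NR), every pair over 0.1, so the numbers were taken to pair the samples. Libraries of different numbers ran from −0.81 to 0.71 and from −0.57 to 0.49, and replicates 1 and 2 correlated with each other about as closely as within their number, so the block mainly sets replicate 3 apart. No pair of replicates agreed within sampling noise (mean chi-square per gene at least 12.0). None of the 10 genes overlapped another gene in the GENCODE annotation of mm9, which also gave exon lengths. Promoters were from RefSeq.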

Additional observations from a re-analysis of the deposited data

Results flagged for a closer look

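The effect of a KO differed between the lines in 5 results, each by the interaction test of the 18-library fit. For *Kmt2c* KO the log2 fold change in 67NR minus that in 168FARN was 1.26 for *Dusp6*, 1.74 for *Spry2* and −3.07 for *Spry1*. For *Kmt2d* KO it was 1.31 for *Dusp6* and 1.40 for *Spry2*. The calls of *Dusp6* and *Spry2* held in all 22 other settings for both KOs, and that of *Spry1* held in 22 for *Kmt2c* KO. *Spry1* was low in 168FARN WT cells, which limits how well a fall could be measured there. Both lines differ also in table, collection and control, which cannot be told apart from the line.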

How the results depend on the processing

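The counts for both KOs of 67NR stayed within 1.5 times under every setting (5 to 6 and 5 to 5 when 1 library was left out). In 168FARN the counts of 0 became 3 and 2 without replicate 3 of every group, where *Dusp5* turned to −0.70 and −0.82; they were 0 in every fit that left out 1 library. *Kmt2c* KO against *Kmt2d* KO in 67NR gave 0 with library totals, where *Spry1* missed at −1.34 (adjusted p = 0.105, edgeR), 2 with the replicate block in edgeR and in DESeq2, 3 without replicate 3 of every group, and 1 to 1 when 1 library was left out. The line difference for *Kmt2c* KO gave 7 with the block in edgeR and in DESeq2, 6 without replicate 3 of every group and 3 to 5 when 1 library was left out, with 5 without replicate 3 of 67NR WT cells. That for *Kmt2d* KO gave 5 with the block in both tools, 7 without replicate 3 of every group and 2 to 4 when 1 library was left out, with 4 without replicate 3 of 168FARN *Kmt2d* KO cells. The WT lines gave 4 to 6. The block changed no other call than those given with the results. The cause of these shifts was not tested. Over all comparisons and settings, 1494 values of single genes kept their side of the thresholds, 54 passed them newly, 10 no longer passed and 2 turned as called values; 75 of the 1494 changed sign while called under neither setting. In 168FARN, *Spry1* had only 26 to 144 counts per library. *Dusp5* had 60 to 1177, with replicate 3 at 2.78 to 8.35 times the mean of the others.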
